A study of Homo sapiens with 10 samples.

Results

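The enzymes described here are those that build isoprenoids from acetyl-CoA by way of mevalonate, taken as the 9 genes *ACAT2*, *HMGCS1*, *MVK*, *PMVK*, *MVD*, *IDI1*, *FDPS*, *GGPS1* and *FDFT1*. They were picked by symbol, not by a threshold on measured values, from a table of 32738 genes, and each symbol had 1 row. Earlier results of these data were known when they were chosen. The table holds 3′ RNA-seq counts from HepG2, a human hepatoma cell line, in 10 libraries. Of these, 5 came from untreated cells, called mock treated in the series' text and kept in regular growth medium, and 5 from cells exposed to 2 µg/ml tunicamycin for 17 h, an inhibitor of N-linked glycosylation that causes endoplasmic reticulum (ER) stress. No vehicle for the untreated cells is named in the sources used here. Each of the 5 replicate experiments was done on its own day, so the p-values measure the spread between repeats of 1 cell line in culture. In RNA from whole cultures, fewer cells of a kind and less RNA per cell cannot be told apart.

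In the mevalonate pathway, ACAT2 joins acetyl-CoA units in the cytosol and HMGCS1 extends the product. Mevalonate, formed downstream, is phosphorylated by MVK and PMVK and decarboxylated by MVD to isopentenyl diphosphate, which IDI1 interconverts with dimethylallyl diphosphate. FDPS assembles these building blocks into farnesyl diphosphate, the branch point of the pathway. FDFT1 commits farnesyl diphosphate to squalene and sterols, whereas GGPS1 lengthens it to geranylgeranyl diphosphate for protein prenylation. Another branch makes dolichol, the lipid on which the sugar chain for N-linked glycosylation is assembled in the ER. Transcription of sterol and mevalonate genes is controlled by SREBP2, a membrane-bound factor that is cut in the Golgi when ER cholesterol is low, and that acts on sterol regulatory elements together with NF-Y, which binds CCAAT boxes.

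Library totals were 4242538 to 4888292 counts in untreated cells and 2234682 to 5029864 in tunicamycin-treated cells, the lowest totals being those of tunicamycin replicates 5 (2234682) and 4 (3567316). All 4 ER stress genes used to check the treatment were higher with tunicamycin, among them *HSPA5*, an ER chaperone (8445 to 66200 normalised counts). All 8 hepatocyte markers were measured, with 4 lower and 0 higher. Of the markers of other cell types, *PTPRC* had 0 counts, *COL1A1* and *KRT7* had 5 and 4 counts in all libraries together, and *CD68* fell from 27.8 to 15.6 normalised counts. The part of these marker changes in the results below was not tested. Normalised counts are counts scaled to a common library size by edgeR's TMM method. Since 3′ sequencing yields about one fragment per transcript, levels of different genes were compared on this scale without division by length. Such comparisons assume that the 3′ end of each gene was captured and counted alike, which was not tested.

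To show the sequence that precedes these genes, stretches upstream of RefSeq transcription start sites (GRCh38.p14) are given for 4 members that fell with tunicamycin (*HMGCS1*, *MVK*, *MVD* and *FDPS*) and for *PMVK* and *IDI1*, which did not pass the test. They are free of annotated exons, are written 5′ to 3′ on the strand of the gene, and carry the letters CCAAT, or the reverse complement ATTGG, in capitals.
HMGCS1, chr5:43313513-43313662, minus strand: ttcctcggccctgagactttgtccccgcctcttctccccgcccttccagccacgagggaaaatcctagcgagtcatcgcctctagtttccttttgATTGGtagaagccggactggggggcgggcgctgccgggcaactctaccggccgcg
MVK, chr12:109573581-109573792, plus strand: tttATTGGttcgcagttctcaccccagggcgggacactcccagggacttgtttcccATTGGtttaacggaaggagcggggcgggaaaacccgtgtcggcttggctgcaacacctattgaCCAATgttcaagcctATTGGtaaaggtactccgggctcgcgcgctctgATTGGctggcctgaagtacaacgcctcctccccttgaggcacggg
MVD, chr16:88663162-88663297, minus strand: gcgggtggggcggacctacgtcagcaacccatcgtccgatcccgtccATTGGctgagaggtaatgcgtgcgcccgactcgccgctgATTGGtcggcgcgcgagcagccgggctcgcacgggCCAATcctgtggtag
FDPS, chr1:155308616-155308747, plus strand: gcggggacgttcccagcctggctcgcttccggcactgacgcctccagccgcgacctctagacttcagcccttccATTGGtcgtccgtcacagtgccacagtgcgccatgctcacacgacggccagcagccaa
PMVK, chr1:154936720-154936969, minus strand: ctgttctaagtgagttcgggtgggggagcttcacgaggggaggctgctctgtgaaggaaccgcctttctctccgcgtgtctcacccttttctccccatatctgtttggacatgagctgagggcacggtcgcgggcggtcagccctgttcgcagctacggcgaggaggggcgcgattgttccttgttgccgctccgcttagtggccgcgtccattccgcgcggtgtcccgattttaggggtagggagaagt
IDI1, chr10:1049120-1049369, minus strand: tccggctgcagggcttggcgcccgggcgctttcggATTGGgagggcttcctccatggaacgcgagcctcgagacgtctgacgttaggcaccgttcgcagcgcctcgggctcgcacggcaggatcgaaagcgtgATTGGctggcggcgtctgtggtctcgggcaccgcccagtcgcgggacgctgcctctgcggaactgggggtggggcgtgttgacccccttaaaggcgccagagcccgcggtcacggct

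Both strands of the windows from 250 bases before to 50 bases after each start were searched for CCAAT and for CACNCCAC, letters found in the classical sterol regulatory element, and overlapping matches would count for both. RefSeq gave 12 windows for 7 members. CCAAT was found in any window for 6 of the 7, all but *PMVK*, against 39.7% of 27305 genes counted the same way. Counted by window, 34.6% of 35116 promoters held it, and some windows of *HMGCS1*, *GGPS1* and *IDI1* held none. A gene with more windows has more room for a match. The *MVK* window held 5 matches, those of *MVD* and *FDPS* held 3 each and the *HMGCS1* window with the stretch shown above held 2. The printed stretches of *FDPS* and *HMGCS1* are only parts of these windows and hold 1 match each. Among all promoters, 3.26% had 3 or more matches. *IDI1*, which did not pass the test, also had a window with 3 matches. CACNCCAC was found for 1 of the 7 members, in that window of *IDI1*, which is not the one printed, against 7.05% of all genes and 5.87% of all promoters. These matches describe letters only, and binding was not measured.

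Tunicamycin lowered the mRNAs of 6 of the 9 enzymes, *ACAT2*, *HMGCS1*, *MVK*, *MVD*, *FDPS* and *FDFT1*, to between 34.6% and 47.8% of their untreated means. The untreated and tunicamycin-treated libraries did not overlap for any of these 6 genes, and each was lower in 5 of 5 replicate pairs. Over all tested genes, 11.9% had every tunicamycin library below every untreated one and 11.7% every one above. None of the 9 was higher, and *PMVK*, *IDI1* and *GGPS1* did not pass the test. All 9 members passed the filter on low counts. Among all 12733 genes tested with edgeR's quasi-likelihood test at a Benjamini-Hochberg adjusted p of 0.05, 16.6% were lower and 17.6% were higher. The median log2 fold change was -1.14 over the 9 members and -0.00335 over all tested genes. The 6 lower and 0 higher members were also found under all 19 alternative settings and sample choices.

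*ACAT2* (ENSG00000120437, chromosome 6, 159762045 to 159779112, plus strand; gene positions are on GRCh38) encodes the cytosolic acetoacetyl-CoA thiolase of the first step. Its normalised counts were, in the order of the replicate numbers here and below, 2012, 1655, 1722, 1670 and 1767 without treatment and 666, 651, 751, 736 and 732 with tunicamycin. Every tunicamycin library thus lay below every untreated one, and the spread within each group was small. The mean fell from 1765 ± 144.7 to 707 ± 45.4 (SD, n = 5 each), or 40.1% of the untreated level, with a log2 fold change of -1.32 (SE 0.086, edgeR adjusted p = 1.1e-09). The 3′ end of *ACAT2* overlaps that of *TCP1*, a chaperonin subunit gene on the opposite strand, by 454 bases. Whether the counting used the strand is not given in the sources used here, and without it reads from this overlap cannot be told apart. *TCP1* went the other way, from 1062 to 1267 normalised counts (log2 fold change 0.25, SE 0.081, edgeR adjusted p = 0.020), a call that was lost with scaling by library size only (0.17, adjusted p = 0.14), without untreated replicate 2, and without tunicamycin replicates 4 and 5 (0.20, adjusted p = 0.093).

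*HMGCS1* (ENSG00000112972, chromosome 5, 43287470 to 43313512, minus strand) encodes the cytosolic HMG-CoA synthase. It had 881, 1057, 1099, 1091 and 1160 normalised counts in the untreated libraries and 416, 305, 402, 342 and 365 in the tunicamycin libraries. The lowest untreated library was replicate 1, still above the highest tunicamycin library. Its mean fell from 1058 ± 105.3 to 366 ± 45.3 (SD, n = 5 each), with a log2 fold change of -1.53 (SE 0.10, edgeR adjusted p = 1.5e-09). Only 1.52% of tested genes had a lower log2 fold change. A lncRNA gene on the opposite strand overlaps its 3′ part and had 0 counts.

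*MVK* (ENSG00000110921, chromosome 12, 109573255 to 109598125, plus strand) encodes mevalonate kinase. Untreated libraries had 298, 300, 205, 233 and 243 normalised counts, and tunicamycin libraries 87.8, 102, 95.4, 187 and 139. Tunicamycin replicates 4 and 5 were the highest of their group, and replicate 4 came close to the lowest untreated library. On average *MVK* fell from 255.6 ± 41.8 to 122 ± 41.1 (SD, n = 5 each), with a log2 fold change of -1.10 (SE 0.18, edgeR adjusted p = 8.1e-05). Within replicate pairs the log2 ratio was -1.76, -1.55, -1.10, -0.32 and -0.80 for replicates 1 to 5. With both tunicamycin replicates 4 and 5 left out, the fitted value was -1.42 (edgeR adjusted p = 2.3e-06).

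*PMVK* (ENSG00000163344, chromosome 1, 154924740 to 154936719, minus strand) encodes phosphomevalonate kinase, which acts directly after MVK. The untreated libraries had 40.5, 50.8, 72.6, 56.4 and 46.8 normalised counts and the tunicamycin libraries 43.9, 44.7, 56.7, 60.4 and 54.5. The groups overlapped throughout, with 2 of 5 pairs lower and 3 higher. The log2 fold change was -0.05 (95% interval -0.43 to 0.33, edgeR adjusted p = 0.85), and its sign changed when untreated replicate 3 was left out (0.09). *PMVK* had the lowest untreated level of the 9 members.

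*MVD* (ENSG00000167508, chromosome 16, 88651935 to 88663161, minus strand) encodes mevalonate diphosphate decarboxylase, the last step to isopentenyl diphosphate. Its normalised counts were 145, 148, 97.1, 118 and 149 in untreated and 47.3, 52.6, 50.1, 52.2 and 46.4 in tunicamycin-treated cells. The tunicamycin libraries lay close together, all below the lowest untreated one. *MVD* fell from 131.5 ± 23.0 to 49.7 ± 2.80 (n = 5 each, with SD), and its log2 fold change was -1.40 (SE 0.15, edgeR adjusted p = 7.2e-07).

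**Figure D1:**
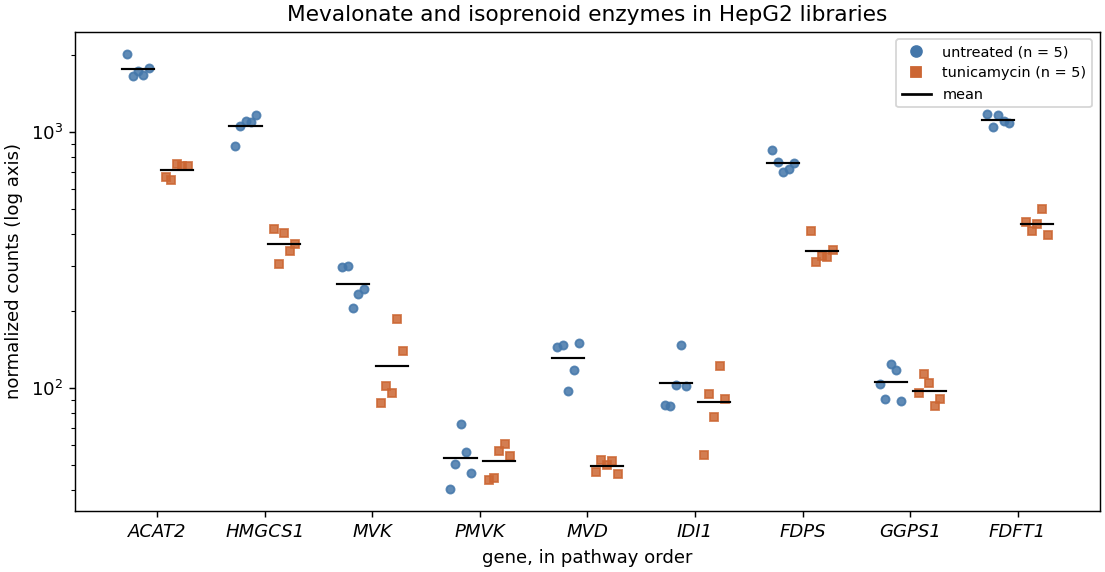
Normalised counts (log axis) of the 9 mevalonate and isoprenoid enzyme genes, in pathway order, with a circle for each untreated library, a square for each tunicamycin library (n = 5 each) and a line at each mean. For ACAT2, HMGCS1, MVK, MVD, FDPS and FDFT1 all squares lie below all circles, while the groups overlap for PMVK, IDI1 and GGPS1.

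*IDI1* (ENSG00000067064, chromosome 10, 1039152 to 1049119, minus strand) encodes isopentenyl diphosphate isomerase. It had 86.1, 85.6, 103, 147 and 102 normalised counts in untreated libraries and 54.9, 95.3, 77.5, 122 and 90.8 in tunicamycin libraries. Replicate 4 was the highest library of both groups, and the groups overlapped. The mean was 104.7 ± 25.03 in untreated and 88.14 ± 24.71 in tunicamycin-treated cells (SD, n = 5 each), with 4 of 5 pairs lower, and the log2 fold change of -0.27 did not pass the test (95% interval -0.67 to 0.13, edgeR adjusted p = 0.30). In the fits with other settings or samples it ranged from -0.46 to -0.11 and was called in none of them, the lowest adjusted p being 0.11.

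*FDPS* (ENSG00000160752, chromosome 1, 155308748 to 155320666, plus strand) encodes farnesyl diphosphate synthase. Untreated libraries had 849.6, 763, 698, 714 and 754 normalised counts and tunicamycin libraries 409.6, 309.6, 327, 324 and 345. Replicate 1 was the highest of each group, and no library of one group reached the other. *FDPS* fell from 756 ± 59.0 to 343 ± 39.3 (SD, n = 5 each), with a log2 fold change of -1.14 (SE 0.095, edgeR adjusted p = 3.0e-08).

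*GGPS1* (ENSG00000152904, chromosome 1, 235327350 to 235344532, plus strand) encodes geranylgeranyl diphosphate synthase. It had 104, 91.0, 124, 118 and 89.4 normalised counts in untreated and 95.4, 113, 105, 85.2 and 90.8 in tunicamycin-treated cells. The groups overlapped, with 3 of 5 pairs lower and 2 higher. The log2 fold change was -0.10 (95% interval -0.38 to 0.18, edgeR adjusted p = 0.61). Another annotated protein-coding gene model shares 1422 exon bases with *GGPS1* on the same strand. It has no row under its Ensembl identifier in the count table, and reads from the shared bases cannot be told apart by model.

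*FDFT1* (ENSG00000079459, chromosome 8, 11795573 to 11839395, plus strand) encodes squalene synthase. Its normalised counts were 1177, 1046, 1168, 1106 and 1078 in untreated and 444, 409.8, 438, 499 and 397 in tunicamycin-treated cells. Both groups were tight, and no value lay between 499 and 1046. The mean fell from 1115 ± 56.6 to 438 ± 39.2 (SD, n = 5 each), or 39.3% of the untreated level, with a log2 fold change of -1.35 (SE 0.085, edgeR adjusted p = 6.6e-10), the smallest adjusted p among the members.

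**Figure D2:**
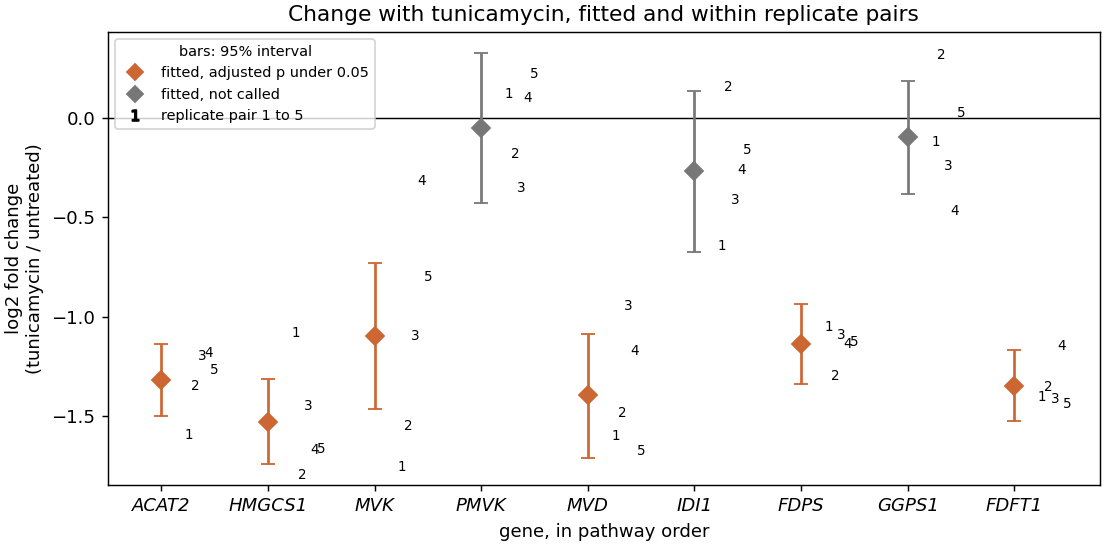
Log2 fold change (tunicamycin over untreated) of each member in pathway order, with the fitted value as a diamond, its 95% interval as a bar and the ratio within each replicate pair as the pair's number. All 5 pairs lie below 0 for the 6 members that fell, the MVK pairs spread from -1.76 to -0.32, and the intervals of PMVK, IDI1 and GGPS1 include 0.

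The members differed widely in level. In untreated cells the order of means was *ACAT2*, *FDFT1*, *HMGCS1*, *FDPS*, *MVK*, *MVD*, *GGPS1*, *IDI1* and *PMVK*, and the libraries of neighbours overlapped between *FDFT1* and *HMGCS1*, between *MVD* and *GGPS1* and between *GGPS1* and *IDI1*. *ACAT2* stood above 97.9% of tested genes in untreated and 93.1% in tunicamycin-treated cells. *MVD* moved from rank 6 to rank 9 of the members, where *MVK*, *GGPS1*, *IDI1*, *PMVK* and *MVD* each overlapped their neighbour in the order. The summed level of the 9 genes fell from 5344 ± 155.5 to 2264 ± 117.4 normalised counts (SD, n = 5 each), to 42.4% of the untreated level. As a share of the library total it fell to 39.9%. *PMVK*, *IDI1* and *GGPS1* together made up 4.12% to 6.12% of the sum in untreated cells and 8.57% to 12.1% after treatment, as the other members fell.

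Of the 11 tested genes of the branch from squalene to cholesterol, 8 were lower and 0 higher, against 16.6% lower and 17.6% higher over all tested genes, with a median log2 fold change of -1.17. *LBR* (-0.14), *HSD17B7* (-0.47) and *SC5D* (0.15) did not pass the test. The log2 ratio of *HSD17B7* was below 0 in pairs 1 to 3, and 0.56 and 0.21 in pairs 4 and 5. Without tunicamycin replicates 4 and 5, the libraries with the lowest totals, this list had 9 lower calls. The largest decreases were those of *DHCR7*, the last reductase of cholesterol synthesis (-1.65), *SQLE*, squalene epoxidase (-1.58), and *LSS*, lanosterol synthase (-1.52). *CYP51A1* had 1 count in all libraries together and was not tested.

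Of 8 tested genes that make dolichol or start the N-glycan on it, 4 were higher and 0 lower, against the same shares of 17.6% and 16.6% over all tested genes, with a median log2 fold change of 0.19. *NUS1*, which encodes the Nogo-B receptor subunit of the cis-prenyltransferase that builds dolichol from farnesyl diphosphate, had 32.7, 34.8, 73.5, 80.6 and 72.2 normalised counts in untreated and 140, 172, 196, 261 and 228 in tunicamycin libraries. Every tunicamycin library was above every untreated one, and the log2 fold change was 1.75 (SE 0.22, edgeR adjusted p = 7.3e-06). *DHDDS*, the catalytic subunit of the same enzyme, did not pass the test, with 58.2 ± 8.002 and 58.5 ± 14.4 normalised counts (SD, n = 5 each) and a 95% interval of -0.35 to 0.39 for the log2 fold change.

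Both subunits of the enzyme that adds the second sugar, *ALG13* (1.73, SE 0.28, edgeR adjusted p = 9.7e-05) and *ALG14* (0.73, SE 0.17, adjusted p = 0.0025), were higher. Without tunicamycin replicates 4 and 5 the log2 fold change of *ALG13* was 1.195 (edgeR adjusted p = 0.00062). *DPAGT1*, the enzyme that tunicamycin inhibits, went from 295.7 ± 39.0 to 368 ± 13.8 normalised counts (SD, n = 5 each), with overlapping groups and a log2 fold change of 0.31 (SE 0.097, edgeR adjusted p = 0.017). This call was lost with scaling by library size only (0.23, adjusted p = 0.10), without untreated replicate 2, and without tunicamycin replicates 4 and 5 (0.30, adjusted p = 0.056).

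Of 10 protein prenylation genes, 3 were higher and 2 lower, with a median log2 fold change of 0.18. With so few genes these counts are near the shares over all tested genes (17.6% higher and 16.6% lower). *RABGGTB*, the catalytic subunit of the enzyme that prenylates Rab proteins, had 79.2, 94.5, 72.6, 85.1 and 86.4 normalised counts in untreated and 95.4, 222, 157, 600 and 619 in tunicamycin libraries. Tunicamycin replicates 4 and 5, the libraries with the lowest totals, were far above the rest, and the log2 fold change of 1.97 (SE 0.38, edgeR adjusted p = 0.00049) became 0.92 without them (adjusted p = 0.0028). *CHM*, the Rab escort protein, was higher (0.92, SE 0.17, edgeR adjusted p = 0.00026). *ICMT*, which methylates prenylated cysteines, fell from 404.4 to 249 normalised counts (-0.70, SE 0.10, edgeR adjusted p = 2.3e-05).

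The median log2 fold change of 12 tested ubiquinone genes was -0.01. Of these, 1 was higher and 0 lower, which with so few genes is near the shares of 17.6% and 16.6% over all tested genes. That gene was *COQ5*, a methyltransferase of ubiquinone synthesis, with 72.3, 103, 86.6, 119 and 101 normalised counts in untreated and 94.6, 110, 137, 276 and 997 in tunicamycin libraries. The groups overlapped, and the difference rested mostly on tunicamycin replicate 5. Its log2 fold change was 1.65 (SE 0.48, edgeR adjusted p = 0.012), but 0.65 (adjusted p = 0.053) without that library and 0.25 (adjusted p = 0.32) without tunicamycin replicates 4 and 5.

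**Figure D3:**
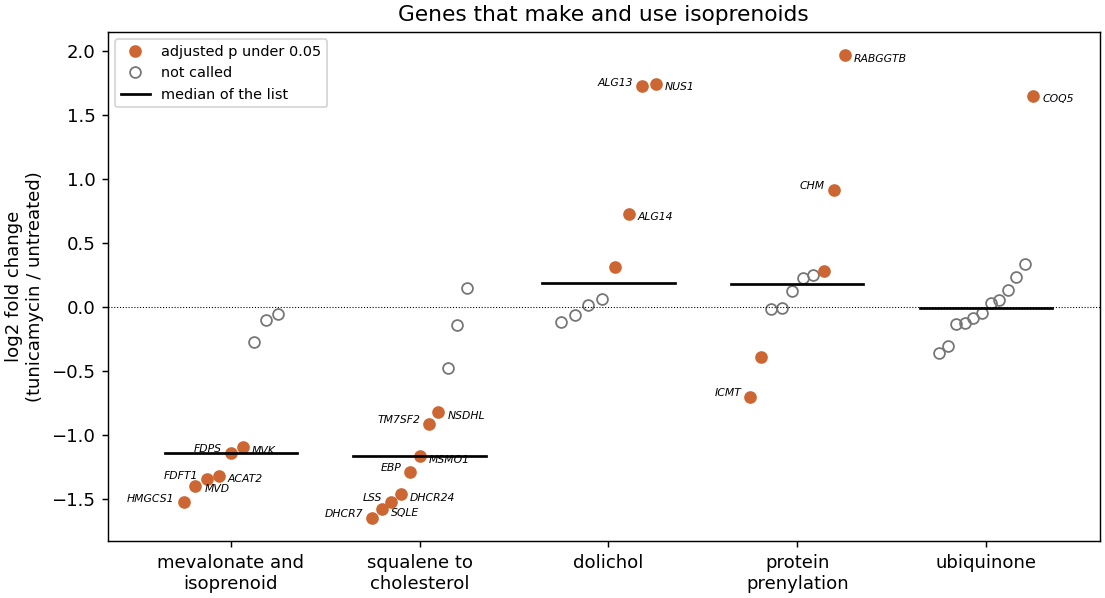
Log2 fold change (tunicamycin over untreated) of each tested gene of the mevalonate and isoprenoid, squalene to cholesterol, dolichol, protein prenylation and ubiquinone lists, filled where the adjusted p was under 0.05, with a line at each list's median. The medians were -1.14, -1.17, 0.19, 0.18 and -0.01, and genes beyond 0.65 in size are named.

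Of 6 tested genes that control SREBP processing, 1 was higher and 1 lower, which is near the shares of 17.6% and 16.6% over all tested genes. *SREBF2*, which encodes SREBP2, fell from 282.5 ± 21.9 to 181 ± 20.9 normalised counts (SD, n = 5 each), with a log2 fold change of -0.65 (SE 0.10, edgeR adjusted p = 7.0e-05). *MBTPS2*, the site-2 protease that cuts SREBP, was higher (0.40, SE 0.14, edgeR adjusted p = 0.034), a call made in 10 of 19 alternatives. *INSIG1*, which encodes an ER anchor of the SREBP complex, had 0 counts in every library.

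To ask whether enzymes that draw on farnesyl diphosphate kept pace with the enzyme that makes it, ratios of counts to *FDPS* within a library were compared between groups by a two-sided exact permutation test. This ratio does not depend on how libraries are scaled. *GGPS1* rose relative to *FDPS* by 1.04 on the log2 scale, from a mean log2 ratio of -2.85 ± 0.28 to -1.80 ± 0.26 (SD, n = 5 each, exact permutation p = 0.0079, adjusted over the 4 ratios 0.011). In linear terms there were 0.139 *GGPS1* counts per *FDPS* count in untreated cells and 0.287 with tunicamycin. Alone, *GGPS1* did not pass the test (log2 fold change -0.10) and *FDPS* fell (-1.14), so this rise restates the fall of *FDPS*. The ratio tests use the same counts as the tests of each gene, so they are not separate results.

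*DHDDS* rose relative to *FDPS* by 1.13 and *NUS1* by 2.97 on the log2 scale (n = 5 each, exact permutation p = 0.0079 for both, adjusted 0.011). This is the smallest value that an exact permutation of 5 against 5 libraries allows. Since *DHDDS* alone did not pass the test (log2 fold change 0.02), its rise also restates the fall of *FDPS*, whereas *NUS1* rose on its own (1.75). With replicate pairs kept together, the exact permutation test cannot go below p = 0.0625, which all 4 ratios, that of *FDFT1* included, gave. *FDFT1* relative to *FDPS* went from 0.56 ± 0.12 to 0.35 ± 0.20 (SD, n = 5 each), a difference of -0.21 that was lower in 5 of 5 pairs and did not pass the unpaired test (exact permutation p = 0.087). It became -0.28 without tunicamycin replicate 4 (exact permutation, adjusted p = 0.016) and -0.25 without tunicamycin replicates 4 and 5 (adjusted p = 0.036).

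**Figure D4:**
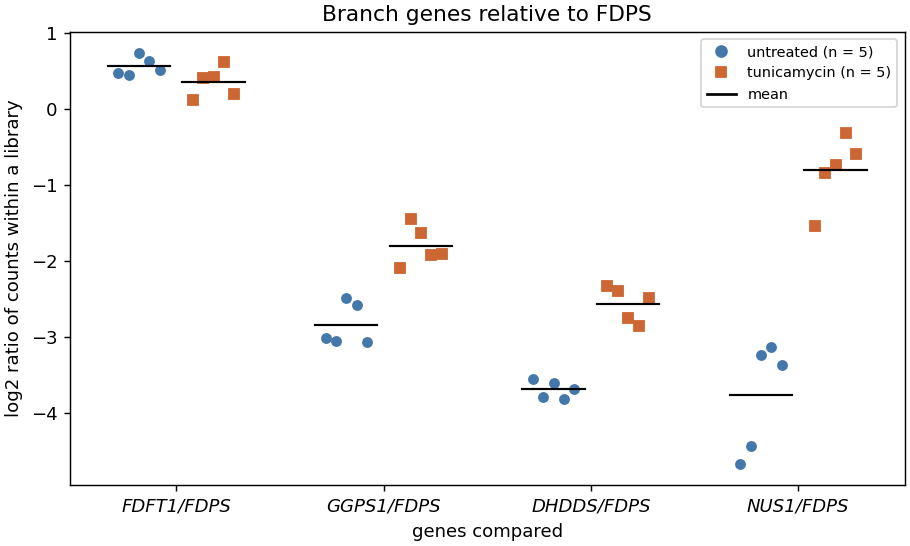
Log2 ratio of the counts of FDFT1, GGPS1, DHDDS and NUS1 to those of FDPS within each library, with a circle for untreated and a square for tunicamycin libraries (n = 5 each) and a line at each mean. The groups are apart for GGPS1, DHDDS and NUS1, with differences of 1.04, 1.13 and 2.97, and overlap for FDFT1.

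Genes of related enzymes were read beside the members. *ACAT1*, the mitochondrial acetoacetyl-CoA thiolase, went from 82.7 ± 28.5 to 202 ± 64.6 normalised counts (n = 5 each, with SD), and its log2 fold change was 1.27 (SE 0.24, edgeR adjusted p = 0.00038), opposite in sign to that of *ACAT2*. The groups overlapped, although all 5 pairs were higher. *IDI2*, a relative of *IDI1*, had 3 counts in all libraries together and was not tested.

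*MVK* shares its upstream region with *MMAB*, which encodes an enzyme of vitamin B12 metabolism and lies on the opposite strand with its start 290 bases away. The 225 bases where their exons overlap lie at the 5′ end of *MVK*, away from the 3′ ends that were sequenced. *MMAB* also fell, from 190.3 ± 11.7 to 97.7 ± 18.1 normalised counts (SD, n = 5 each), lower in 5 of 5 pairs, with a log2 fold change of -0.95 (SE 0.13, edgeR adjusted p = 1.3e-05). In tunicamycin replicate 4, *MVK* had its highest value of the group (187) and *MMAB* its lowest (65.9).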

How the data were processed

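HepG2 cells were untreated or treated with tunicamycin, with 5 libraries per group, made with the QuantSeq 3′ kit. The authors mapped reads to hg19 with Ensembl definitions in the nf-core RNA-Seq pipeline with its default settings and deposited raw counts per gene for 32738 genes, of which 15320 had no count in any library. The aligner, counting program and strand setting are not named in the sources used here. Totals of 2234682 to 5029864 counts per library limit precision for genes with few counts.

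From these counts, genes were filtered with filterByExpr (minimum count 2, minimum total 10), scaled by TMM and tested on condition by the quasi-likelihood method of edgeR (version 4.0.16, in R 4.3.3), with Benjamini-Hochberg adjustment over 12733 genes at 0.05. SDs are of normalised counts, and ratios used a pseudocount of 0.5. The tests were checked on simulated data. Alternatives were DESeq2 1.42.0, with and without the replicate block, DESeq2 size factors, library size only, no filter, the default filter, the replicate block, thinning to 2234682 counts, each library left out, and, chosen after seeing the data, tunicamycin replicates 4 and 5 left out together.

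Replicate numbers mark experiment days in the series' own text, so same-numbered libraries are paired. Across 10743 genes, pairs 1 to 5 deviated from the means of their groups with correlations of 0.292, 0.00707, 0.0517, 0.119 and 0.0655. The highest correlation of each untreated replicate with a tunicamycin library of another number was -0.00608, 0.132, 0.0562, 0.117 and 0.124. Only for replicates 1 and 4 was the same-numbered library the closest, and for replicate 4 by little. The condition-only fit is the main one, since no block is stated in the study's methods.

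The members and lists were chosen with earlier results of these data known. Named were all members, the 3 called genes with the largest changes in each other list, and *DPAGT1*, *DHDDS*, *NUS1*, *ACAT1*, *SREBF2*, *INSIG1*, *MMAB* and *TCP1*. In contrast, *IDI2*, *CYP51A1*, *LBR*, *HSD17B7*, *SC5D*, *SCAP* and the marker genes were named after their values were seen. Some genes of the lists are not reported here. Positions are from GRCh38 with GENCODE annotation, and promoters from RefSeq (GRCh38.p14), for 7 of 9 members, no entry being used for *ACAT2* and *FDFT1*. No hg19 coordinate is given.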

Additional observations from a re-analysis of the deposited data

Results flagged for a closer look

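In 66 groups of 5 libraries, the gap of the highest or lowest library to its nearest neighbour, as a share of the group's range, was set against Dixon's critical value of 0.71. This marked 6 groups, where chance gives about 3.3. Among the members, *IDI1* in untreated replicate 4 had 146.9 normalised counts against 85.6 to 103.2 in the other untreated libraries, and the paired tunicamycin library was also the highest of its group. *COQ5* in tunicamycin replicate 5 had 996.8 against 94.6 to 276.1, and the gene was not called without that library. *SREBF2* in tunicamycin replicate 5 had 217.9 against 168.7 to 177.4, and *MMAB* in tunicamycin replicate 4 had 65.94 against 103.0 to 111.5, both still below their untreated libraries. *CHM* in untreated replicate 3 had 30.62 against 39.42 to 40.66. *DPAGT1* in tunicamycin replicate 3 had 343.8 against 369.2 to 377.8.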

How the results depend on the processing

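The 6 lower and 0 higher members were found under all 19 alternatives, and the log2 fold changes of *ACAT2*, *HMGCS1*, *MVK*, *MVD*, *FDPS* and *FDFT1* stayed between -1.65 and -0.99. Leaving out single libraries, *PMVK* ranged from -0.14 to 0.091, changing sign without untreated replicate 3 (0.091), tunicamycin replicate 1 (0.0083) or tunicamycin replicate 2 (0.0082). Over all genes, 2237 higher and 2116 lower calls became 1774 and 2570 with library size only. As a share of library totals, the summed level of the members changed by -1.32 instead of -1.24 on the log2 scale.

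With the replicate block, 2499 genes were higher and 2312 lower, no member's call changed, and SREBP control genes had 2 lower calls instead of 1, the other gene being *SCAP*. Keeping replicate pairs together, the ratios to *FDPS* of *GGPS1* (1.04), *DHDDS* (1.13) and *NUS1* (2.97) lost the threshold, since p cannot go below 0.0625. DESeq2 with the replicate block gave 1 lower prenylation gene instead of 2, 0 higher ubiquinone genes instead of 1, and 0 higher and 2 lower SREBP control genes instead of 1 and 1. SREBP control genes also had 0 higher and 2 lower calls with library size only, and 2 lower calls with the default filter and with thinned counts. Without tunicamycin replicates 4 and 5, the higher calls were 0 for ubiquinone and 0 for SREBP control, and *FDFT1* relative to *FDPS* passed the test (-0.25). The branch from squalene to cholesterol then had 9 lower calls instead of 8, and the dolichol list 3 higher instead of 4.

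Leaving out single libraries, prenylation had 1 to 2 lower calls, ubiquinone 0 to 2 higher, and SREBP control 0 to 1 higher and 1 to 2 lower. The *FDFT1* to *FDPS* ratio ranged from -0.28 to -0.15, and passed the test only without tunicamycin replicate 4. The cause of these changes was not tested. Low totals in tunicamycin replicates 4 and 5 limit genes near 50 normalised counts such as *PMVK*.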
